A study of Mus musculus with 2 samples.

Results

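The enzymes described here are the mouse UDP-glucuronosyltransferases (UGTs) and cytosolic sulfotransferases (SULTs), the conjugating enzymes that attach glucuronic acid or sulfate to small molecules. Members were taken by symbol alone, as every gene named Ugt1a, Ugt2a, Ugt2b or Ugt3a plus a number, or Sult followed by a number. This gave 38 of the 24054 genes in the expression table, 20 UGT genes and 18 SULT genes. RNA was sequenced from the livers of male C57BL/6 mice of 8 to 12 weeks, Pgrmc1 KO (Pgrmc1 -/Y) or wild type (WT). Pgrmc1 is an X-linked gene for a membrane heme-binding protein that associates with cytochromes P450. The floxed allele was made in C57BL/6N mice and crossed to the line B6.Cg-Tg(Sox2-cre)1Amc/J, and the labels give the strain of both groups as C57BL/6. In the KO, loxP sites around exons 1 and 2 were recombined by Sox2-Cre, which is active in the early embryo, so that the gene was lost from the whole body and not from the liver alone. The RNA of 5 mice per genotype, 2.5 µg from each, was mixed into 1 pool, and each pool gave 1 library. The spread between mice was therefore not measured, no difference below has a replicate check, and no p-value is given.

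UGTs sit in the membrane of the endoplasmic reticulum, face its lumen, and transfer glucuronic acid from UDP-glucuronic acid to bilirubin, steroids, bile acids and drugs. SULTs are soluble and transfer sulfate from 3′-phosphoadenosine-5′-phosphosulfate (PAPS) to phenols, steroids and amines. Both make their substrates more water soluble, often after a cytochrome P450 has added an oxygen, and the conjugates leave the hepatocyte through transporters of the canalicular and basolateral membranes. In mouse liver several members of both families are expressed differently in males and females.

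The Ugt1a genes are unusual in that each has its own first exon, spliced to one common set of downstream exons. In the GENCODE annotation of GRCm38 all 8 Ugt1a members lay on the plus strand of chromosome 1 and had a coding transcript of 5 exons. Only that transcript is described here, and coding transcripts with another number of exons were left out. All 8 transcripts shared exon 2 at chr1:88215044-88215175. They were identical over the 440 bases of exons 2 to 4, and exon 1 made up 28.3% to 42.1% of each. The last 24 coding bases of each exon 1, in lower case, and the first 24 of the shared exon 2, in capitals, are printed to show the point at which the transcripts become identical. A read from exons 1 to 4 can tell one Ugt1a gene from another only where some of it lies in exon 1.
Ugt1a10: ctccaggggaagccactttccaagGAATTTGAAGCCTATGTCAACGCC
Ugt1a9: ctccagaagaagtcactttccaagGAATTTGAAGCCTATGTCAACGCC
Ugt1a7c: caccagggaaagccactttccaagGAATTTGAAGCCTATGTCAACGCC
Ugt1a6b: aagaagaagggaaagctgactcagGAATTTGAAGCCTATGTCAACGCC
Ugt1a6a: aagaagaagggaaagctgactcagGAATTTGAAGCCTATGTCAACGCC
Ugt1a5: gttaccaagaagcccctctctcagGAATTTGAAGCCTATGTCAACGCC
Ugt1a2: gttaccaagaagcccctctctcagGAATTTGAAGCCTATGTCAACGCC
Ugt1a1: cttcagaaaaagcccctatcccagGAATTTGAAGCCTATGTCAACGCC
The 8 genes had only 6 distinct ends of exon 1, because Ugt1a2 and Ugt1a5 ended alike, as did Ugt1a6a and Ugt1a6b. Among all 100-base windows of each gene's longest coding transcript, 57.2% to 100% also occurred in another gene's transcript. The median over the 8 genes was 63.0%. For Ugt1a6a, Ugt1a6b and Ugt1a7c that transcript was longer (2297, 2303 and 3302 bases) than the one of 5 exons (2265, 2249 and 3231). The value of 100% was that of Ugt1a6a, whose sequence is also contained in a transcript filed under Ugt1a7c. The split of reads among Ugt1a members is therefore an estimate of the authors' counting model, and their sum is given beside them.

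**Figure D1:**
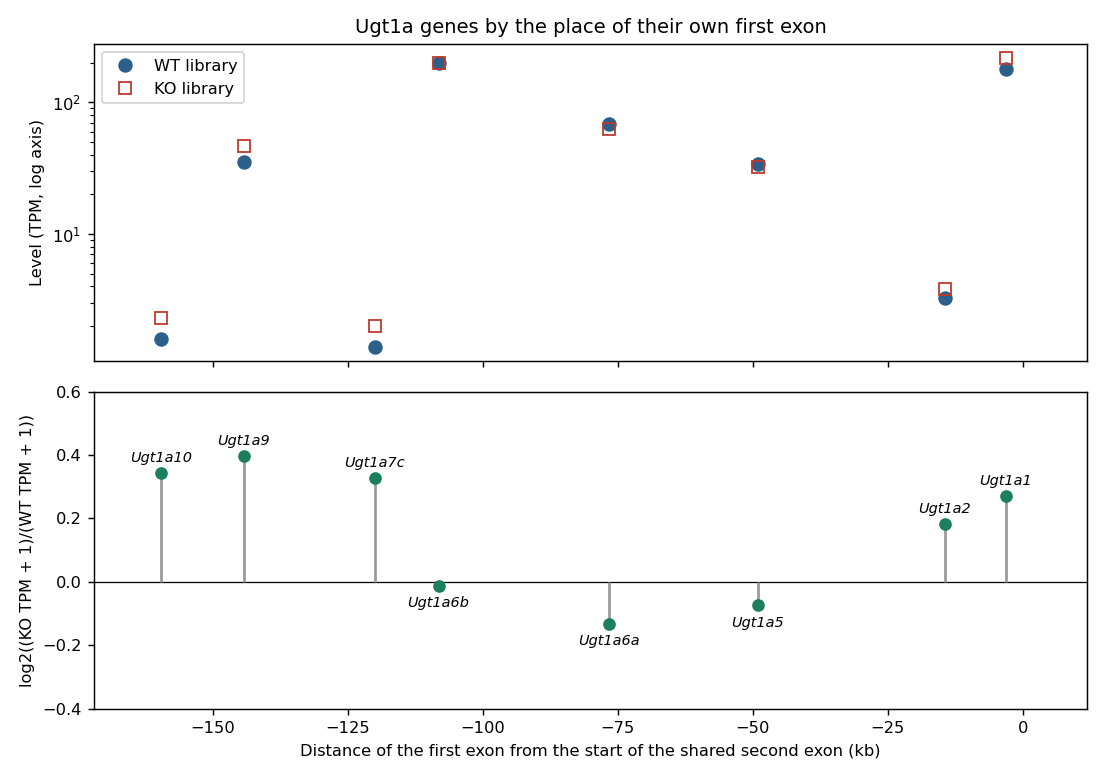
Level in each library (TPM, log axis, upper panel) and log2 change (lower panel) of the 8 Ugt1a genes. The horizontal axis is the distance of the first exon of the 5-exon transcript from the shared second exon (kb). Ugt1a1, nearest the shared exon, and Ugt1a6b carried the highest levels in both libraries, at 178.63 to 215.63 TPM, and the 3 genes in the middle of the locus, Ugt1a6b, Ugt1a6a and Ugt1a5, have log2 changes of -0.01, -0.13 and -0.07.

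A second set of related genes, the Ugt2b genes, lies on chromosome 5 and shared fewer windows than the Ugt1a genes. Ugt2b38 shared 24.2% of its 100-base windows with Ugt2b5, Ugt2b5 shared 24.7% with Ugt2b38, and Ugt2b37 shared 1.06% with Ugt2b38, while Ugt2b1, Ugt2b35, Ugt2b36 and both Ugt3a genes shared none. The 250 bases upstream of the RefSeq starts (GRCm38.p6, minus strand, 5′ to 3′) are printed for the 3 related genes, since Ugt2b37 and Ugt2b38 were both higher in KO and Ugt2b5 was lower. They lie at chr5:87424204-87424453 for Ugt2b38, chr5:87254789-87255038 for Ugt2b37 and chr5:87140341-87140590 for Ugt2b5, and capitals mark bases that did not match Ugt2b38 in a pairwise alignment.
Ugt2b38: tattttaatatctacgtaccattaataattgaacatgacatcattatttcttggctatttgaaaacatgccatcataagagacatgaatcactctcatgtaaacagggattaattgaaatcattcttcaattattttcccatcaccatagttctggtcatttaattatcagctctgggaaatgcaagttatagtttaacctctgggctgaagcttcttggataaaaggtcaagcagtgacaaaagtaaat
Ugt2b37: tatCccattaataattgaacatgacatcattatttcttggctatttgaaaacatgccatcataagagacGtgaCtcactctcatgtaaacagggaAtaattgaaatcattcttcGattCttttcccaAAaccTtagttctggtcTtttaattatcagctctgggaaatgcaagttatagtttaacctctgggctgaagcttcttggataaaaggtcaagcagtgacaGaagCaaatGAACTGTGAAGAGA
Ugt2b5: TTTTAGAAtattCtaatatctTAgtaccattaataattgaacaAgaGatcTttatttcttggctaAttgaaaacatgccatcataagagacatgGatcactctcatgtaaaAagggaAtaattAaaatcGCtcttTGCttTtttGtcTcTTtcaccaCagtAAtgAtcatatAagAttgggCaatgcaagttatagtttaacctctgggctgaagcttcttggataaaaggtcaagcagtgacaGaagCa
The Ugt2b37 window was 84.8% identical to that of Ugt2b38, with 12 substituted bases and 14 without a partner. These 14 are the 3′ end of the Ugt2b37 window, and nearly the same bases follow the Ugt2b38 start, outside its window. The starts of both genes are thus offset, and the 84.8% counts that offset as difference. Apart from the 14, only the 12 substituted bases of the Ugt2b37 window did not match. The Ugt2b5 window was 81.5% identical to that of Ugt2b38, with 28 substituted bases and 10 without a partner, and 72.6% identical to that of Ugt2b37. It ends earlier in the common sequence than the windows of Ugt2b38 and Ugt2b37. These values therefore also count an offset as difference and do not rank the genes by substituted bases. All other Ugt2b pairs were between 45.6% and 60.8% identical over this window.

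The level of each gene is given in TPM (transcripts scaled to a library total), a unit that divides reads by transcript length and so allows genes to be compared within a library. The deposited values summed to 1005325 TPM in KO and 994702 in WT over all genes, a ratio of 1.01. Sums of members are therefore not on exactly equal totals. The log2 change is log2((KO TPM + 1)/(WT TPM + 1)), which understates the change of low genes. The interval after it is the 95% Clopper-Pearson interval of the log2 ratio of the authors' normalised means, from estimated reads, and covers counting error only. A gene averaging 1 TPM or more was called up at a fold of at least 1.4 and down at a fold of at most 0.6. The down cutoff is the stricter one, since the mirror of 1.4 is 0.714. Numbers of genes called up and down are therefore not comparable with each other. The libraries held an estimated 22086692 reads for KO and 29710419 for WT. Pgrmc1, the deleted gene, was at 0.68 TPM in KO and 949.49 in WT, a log2 change of -9.14.

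UGT transcripts were about 10 times as abundant as SULT transcripts in both libraries, with a ratio of 10.4 in KO. The summed UGT level was 3297.23 TPM in KO and 3308.38 in WT, a ratio of 0.997. The summed SULT level was 315.99 TPM in KO and 330.02 in WT, a ratio of 0.957. Both families together took 0.359% of all TPM in KO and 0.366% in WT. Of the 38 members, 23 had a mean of at least 1 TPM (18 UGT and 5 SULT) and 17 of at least 10 TPM (14 UGT and 3 SULT).

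**Figure D2:**
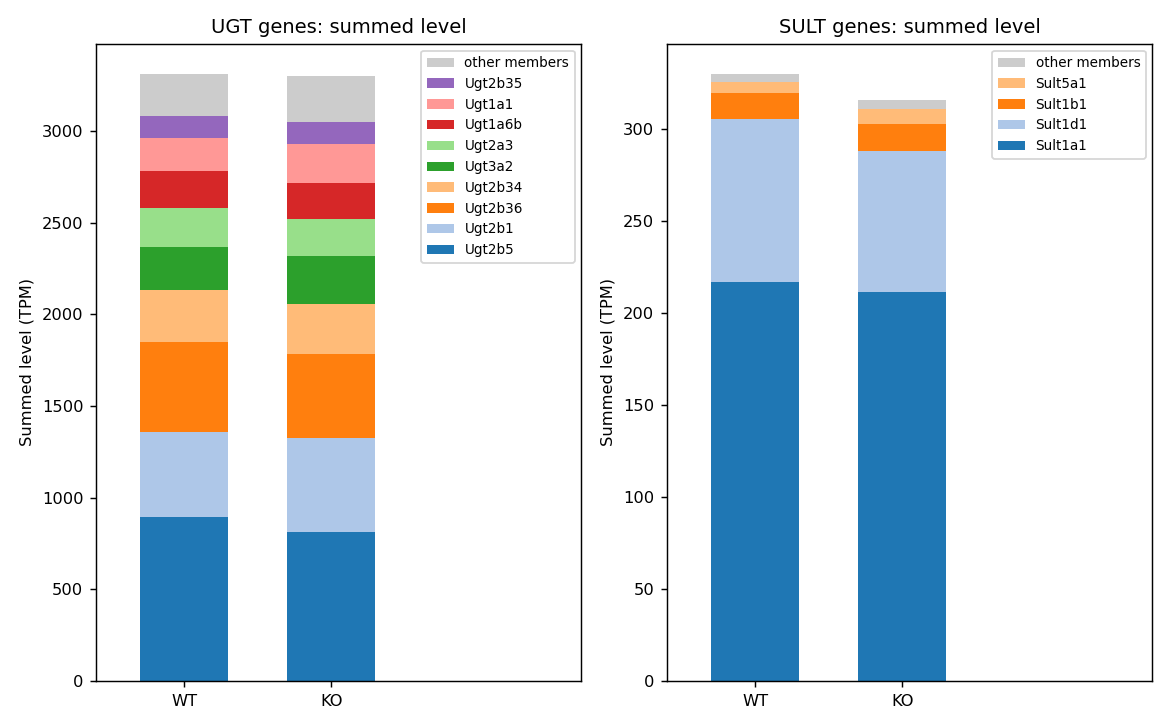
Stacked bars of the summed level (TPM) of the UGT genes and of the SULT genes in the WT and KO libraries, with the 9 most abundant UGT and 4 most abundant SULT genes in colour and all other members in grey. The UGT bars are nearly equal in height (3308.38 in WT, 3297.23 in KO), and the largest block is Ugt2b5 for UGT and Sult1a1 for SULT.

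Of these 23 members, 1 was called up, Ugt2b37, and 0 were called down. With 0.714 as the down cutoff, 0 UGT and 0 SULT genes were called down. Among all 11623 genes averaging 1 TPM or more, 1.21% were called up and 0.301% down, so a single call among 23 is too few to read as more than that background. At a smaller fold of 1.2, 7 members were higher in KO and 0 were lower, against 5.39% of all genes higher and 5.51% lower. The 7 were Ugt1a1, Ugt1a9, Ugt1a10, Ugt1a7c, Ugt2b37, Ugt2b38 and Sult5a1, and 4 of them had a mean under 10 TPM. They are not independent measurements, since the 4 Ugt1a members share exons. The median log2 change was 0.13 over the 18 UGT genes, -0.01 over the 5 SULT genes and -0.01 over all genes. Over the 14 UGT genes averaging 10 TPM or more the median was -0.04, so the sign of the UGT median depended on the members of low level.

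**Figure D3:**
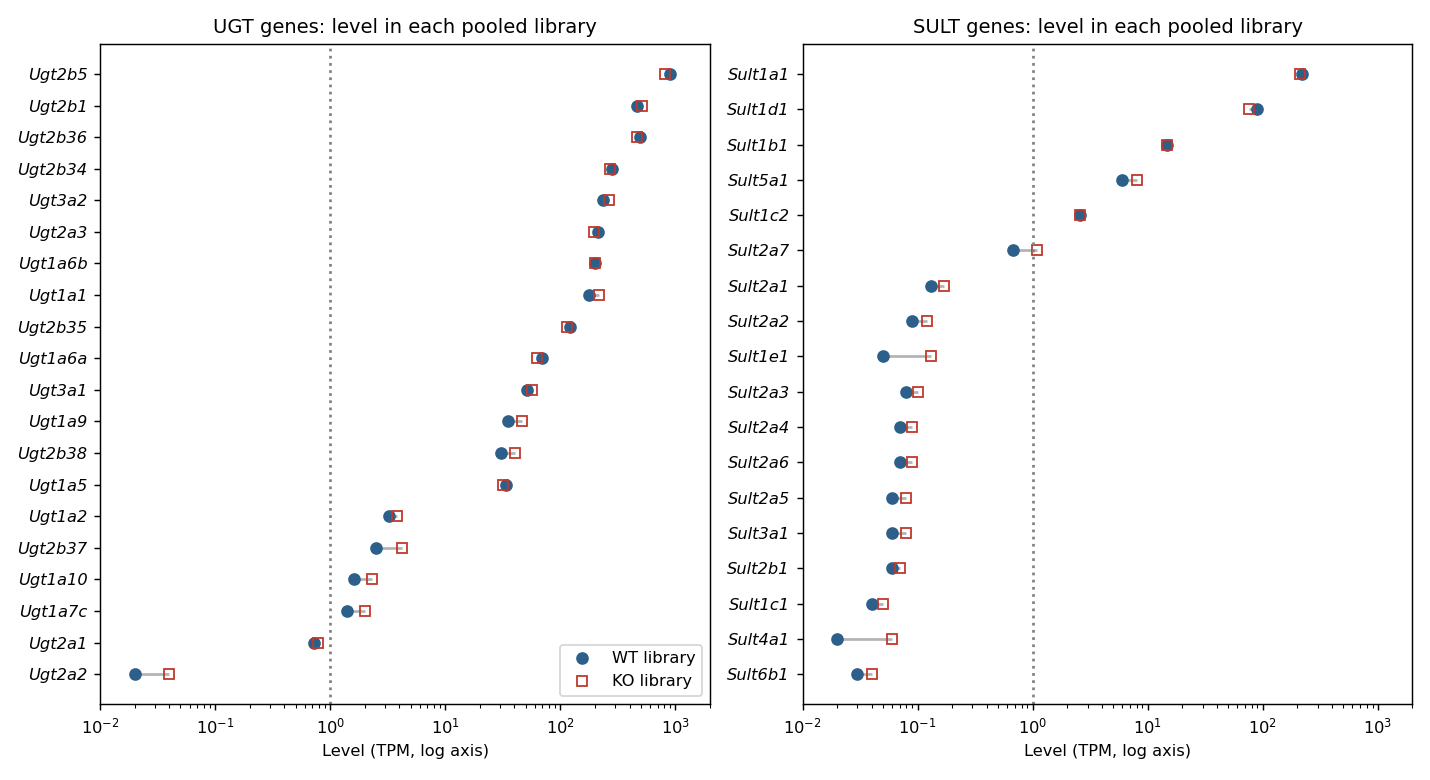
Level (TPM, log axis) of all 38 members in the KO library (open squares) and the WT library (filled circles), 1 pooled library per genotype, with a dotted line at 1 TPM. The points of a gene nearly coincide for the abundant members, such as Ugt2b5 at 814.46 TPM in KO and 891.88 in WT, and all 15 members averaging below 1 TPM have the KO point to the right.

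Ugt2b enzymes, which conjugate steroids, bile acids and many drugs, formed the largest share of UGT transcripts. Ugt2b5 was the most abundant UGT, at 814.46 TPM in KO and 891.88 in WT, a log2 change of -0.13 (-0.14 to -0.09). It made up 24.7% of all UGT TPM in KO and 27.0% in WT. Ugt2b1 was at 508.81 TPM in KO and 464.80 in WT, a log2 change of 0.13 (0.11 to 0.17). Ugt2b36 was at 461.65 TPM in KO and 492.87 in WT, a log2 change of -0.09 (-0.11 to -0.04). Ugt2b1 and Ugt2b36 thus moved in opposite directions by small amounts and exchanged the neighbouring places behind Ugt2b5 in the order of UGT levels. Ugt2b34 was at 270.55 TPM in KO and 282.10 in WT (log2 change -0.06), and Ugt2b35 at 114.80 and 120.52 (log2 change -0.07). Each of these 5 genes differed between the libraries by less than a fold of 1.2.

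The less abundant Ugt2b38 and Ugt2b37 had higher log2 changes than the other UGT genes with a pseudocount of 1 TPM. With 0.1 TPM, Ugt1a10 (0.50) and Ugt1a7c (0.50) lay above Ugt2b38 (0.41), as they did with the authors' means (0.52 and 0.53 against 0.43), and Ugt2b37 was the highest in each. Ugt2b38 was at 40.39 TPM in KO and 30.28 in WT, a log2 change of 0.40 (0.30 to 0.56) and a fold of 1.32, from an estimated 980 and 983 reads. Ugt2b37 rose to 4.18 TPM in KO from 2.51 in WT, a log2 change of 0.56 (0.32 to 1.198) and a fold of 1.48, from an estimated 99.6 reads in KO and 79.9 in WT. Neither gene weighs much in the total, since the sum of both was 44.57 TPM in KO and 32.79 in WT, a ratio of 1.36. With Ugt2b5, whose transcript shares windows with that of Ugt2b38, the sum was 859.03 TPM in KO and 924.67 in WT, a ratio of 0.929. Whether reads were moved between these genes by the counting was not tested. The 7 Ugt2b genes together stood at 2214.84 TPM in KO and 2284.96 in WT, a ratio of 0.969.

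Ugt2a3, the Ugt2a enzyme of liver and intestine, was at 197.44 TPM in KO and 211.45 in WT, a log2 change of -0.10 (-0.13 to -0.03). The olfactory gene Ugt2a1 was at 0.78 TPM in KO and 0.73 in WT, and Ugt2a2 at 0.04 and 0.02. Of their 100-base windows, 94.9% for Ugt2a1 and 94.4% for Ugt2a2 also occur in a transcript of another gene (67.8% and 68.6% in each other's), and both were below the level at which changes were counted.

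The Ugt3a enzymes use other sugar donors than UDP-glucuronic acid and share no 100-base window with any other gene. For neither gene, however, were the estimated reads whole numbers in both libraries. Ugt3a2 was at 263.71 TPM in KO and 236.95 in WT, a log2 change of 0.15 (0.12 to 0.21). Ugt3a1 was at 56.96 TPM in KO and 51.70 in WT, a log2 change of 0.14 (0.06 to 0.25). Both neighbours were higher in KO by nearly the same proportion, and their sum had a ratio of 1.11, under the fold of 1.2.

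Ugt1a1 is the enzyme that conjugates bilirubin. It was at 215.63 TPM in KO and 178.63 in WT, a log2 change of 0.27 (0.24 to 0.32) and a fold of 1.21, from an estimated 9301 and 10323 reads. Ugt1a9, which acts on bulky phenols and many drugs, was at 46.45 TPM in KO and 35.04 in WT, a log2 change of 0.40 (0.33 to 0.51) and a fold of 1.32. These 2 genes and Ugt2b38 were the only 3 of the 17 members averaging 10 TPM or more to lie above 0.20, the 95th percentile of the log2 change among all genes of that level, and 0 members lay below -0.25, the 5th percentile.

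The Ugt1a6 enzymes, which prefer small planar phenols, did not share that direction. Ugt1a6b was at 198.57 TPM in KO and 200.18 in WT, a log2 change of -0.01 (-0.05 to 0.05). Ugt1a6a was at 62.62 TPM in KO and 68.70 in WT, a log2 change of -0.13 (-0.19 to -0.05). Ugt1a5 was at 32.07 TPM in KO and 33.78 in WT, a log2 change of -0.07 (-0.16 to 0.04). None of these 3 genes differed by a fold of 1.2.

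The 3 remaining Ugt1a members were each below 4 TPM. Ugt1a2 was at 3.82 TPM in KO and 3.25 in WT (log2 change 0.18, -0.05 to 0.57). Ugt1a10 was at 2.30 TPM in KO and 1.60 in WT (0.34, 0.10 to 0.95), and Ugt1a7c at 2.0 and 1.39 (0.33, 0.08 to 0.996). The last 2 rested on fewer than 100 estimated reads in each library and were not called. Summed over all 8 members, Ugt1a stood at 563.46 TPM in KO and 522.57 in WT, a ratio of 1.08 and a log2 change of 0.11 (0.11 to 0.16 on the scale of the means, where the change was 0.14). Without Ugt1a1 and Ugt1a9 the sum was 301.38 TPM in KO and 308.90 in WT, a ratio of 0.976. The higher Ugt1a sum in KO was therefore made up by Ugt1a1 and Ugt1a9, as the counting model assigned the reads.

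Within the Ugt1a total, Ugt1a1 accounted for 38.3% in KO and 34.2% in WT, and Ugt1a6b for 35.2% and 38.3%. Ugt1a6b was thus the leading Ugt1a transcript in WT and Ugt1a1 in KO. Ugt1a9 accounted for 8.24% in KO and 6.71% in WT, Ugt1a6a for 11.1% and 13.1%, and Ugt1a5 for 5.69% and 6.46%. Each of the other 3 stayed under 1% in both libraries. Along the locus, the first exons farthest from the shared exons belong to Ugt1a10, Ugt1a9 and Ugt1a7c, with log2 changes of 0.34, 0.40 and 0.33. Next come Ugt1a6b, Ugt1a6a and Ugt1a5 (-0.01, -0.13 and -0.07), and then Ugt1a2 and Ugt1a1 (0.18 and 0.27).

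The RefSeq promoter table, with 250 bases before and 50 after each start, held 32 of the 38 members, and did not include Sult2a1, Sult2a2, Sult2a7, Sult4a1, Ugt1a6b and Ugt3a2. GTTAAT, a half-site of the liver factor HNF1, was searched on both strands and was present in 8.24% of 27025 genes. It was present in 6 of 18 UGT windows, namely 4 of 7 Ugt1a, 1 of 10 Ugt2 (Ugt2a3) and that of Ugt3a1. It was also present in 6 of 14 SULT windows, those of Sult1a1, Sult1d1, Sult2a3, Sult2a4, Sult2a5 and Sult2a6. Windows of related genes are not independent, and those of Ugt1a9 and Ugt1a10 were 68.9% identical over the 250 bases before the start. An excess over all genes was not tested. TATAAA, searched in the same way, was present in 0 of 7 Ugt1a windows, 3 of 18 UGT windows and 4 of 14 SULT windows, against 15.7% of genes. The 120 bases upstream of the 4 Ugt1a starts with GTTAAT are shown, with that word or its reverse complement ATTAAC in capitals. They lie on the plus strand at chr1:88211839-88211958 for Ugt1a1, chr1:88070659-88070778 for Ugt1a9, chr1:88055291-88055410 for Ugt1a10 and chr1:88134689-88134808 for Ugt1a6a. The RefSeq start of Ugt1a6a, at 88134809, lies well before exon 1 of its GENCODE transcript described above, which starts at 88138378. The bases before that exon 1 were not searched.
Ugt1a1: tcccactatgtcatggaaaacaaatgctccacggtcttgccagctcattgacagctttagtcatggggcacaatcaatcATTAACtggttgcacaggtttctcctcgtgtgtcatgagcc
Ugt1a9: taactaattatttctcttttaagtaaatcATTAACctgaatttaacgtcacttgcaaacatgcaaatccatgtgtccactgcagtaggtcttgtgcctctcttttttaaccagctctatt
Ugt1a10: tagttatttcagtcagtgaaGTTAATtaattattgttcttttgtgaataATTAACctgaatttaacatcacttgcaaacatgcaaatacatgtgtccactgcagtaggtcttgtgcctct
Ugt1a6a: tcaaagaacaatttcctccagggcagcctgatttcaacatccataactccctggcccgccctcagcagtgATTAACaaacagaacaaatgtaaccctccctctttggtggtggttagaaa
Of these 4 genes, Ugt1a1, Ugt1a9 and Ugt1a10 were higher in KO by at least 1.2-fold and Ugt1a6a was not, so the word was not particular to the members that were higher. A match is a description of the letters and not a bound site.

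Among the sulfotransferases, Sult1a1, the main phenol sulfotransferase of liver, was at 211.81 TPM in KO and 217.17 in WT, a log2 change of -0.04 (-0.08 to 0.04). It made up 67.0% of all SULT TPM in KO and 65.8% in WT. Sult1d1, which sulfates catecholamines and other amines, was at 76.67 TPM in KO and 88.32 in WT, a log2 change of -0.20 (-0.27 to -0.12). It accounted for 24.3% of SULT TPM in KO and 26.8% in WT and held most of the difference between the SULT sums. Sult1b1, which acts on thyroid hormones and small phenols, was at 14.75 TPM in KO and 14.59 in WT, a log2 change of 0.01 (-0.14 to 0.20).

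Sult5a1, a member of little known function, was at 8.03 TPM in KO and 5.92 in WT, a log2 change of 0.38 (0.07 to 0.85) and a fold of 1.31, from an estimated 111 and 109 reads. Sult1c2 was at 2.57 TPM in KO and 2.59 in WT, a log2 change of -0.01 (-0.58 to 0.58). The order of the 5 SULT genes averaging 1 TPM or more was the same in both libraries, whereas 10 of the 18 UGT genes kept their place.

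The other 13 SULT genes had means below 1 TPM. Sult2a7 was the highest of them, at 1.08 TPM in KO and 0.67 in WT from an estimated 10 and 8 reads. Sult2a1, a hydroxysteroid sulfotransferase of female mouse liver, was at 0.17 and 0.13 TPM from 1 read in each library. Sult1e1, the estrogen sulfotransferase, was at 0.13 and 0.05 TPM, and the brain gene Sult4a1 at 0.06 and 0.02, each from 1 read in KO and 0 in WT, a count that allows up to 3 reads. The other 9, namely Sult1c1, Sult2a2 to Sult2a6, Sult2b1, Sult3a1 and Sult6b1, and the UGT gene Ugt2a2 lay between 0.02 and 0.12 TPM and were not in the authors' table of means. All 15 members below 1 TPM were listed higher in KO, with a median ratio of 1.33. The same held for other genes not in the table of means, of which 91.3% were higher in KO with a median ratio of 1.30, while the WT library had 1.35 times the estimated reads of the KO library. Differences between the libraries were not detectable for these members at this depth.

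**Figure D4:**
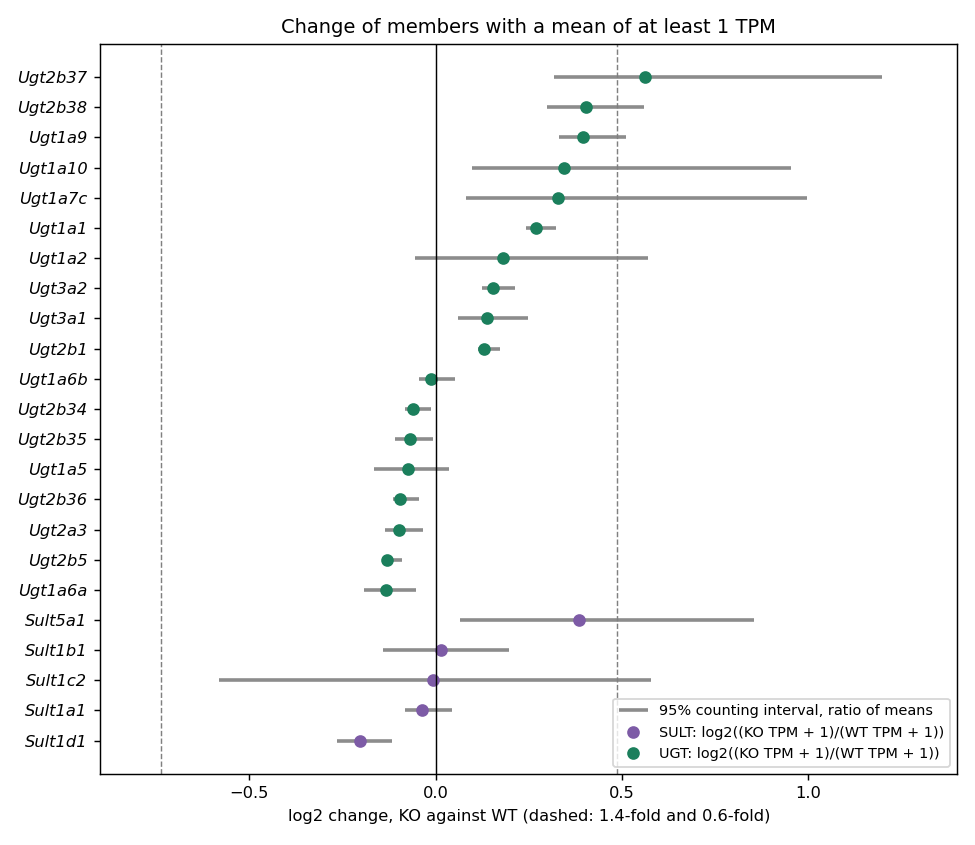
Log2 change of each member averaging 1 TPM or more, as log2((KO TPM + 1)/(WT TPM + 1)), with bars for the 95% counting interval of the ratio of the authors' means. Ugt2b37 has the highest value (0.56, interval 0.32 to 1.198) and Sult1d1 the lowest (-0.20, interval -0.27 to -0.12).

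For members averaging 10 TPM or more, the counting interval lay above 0 for 6 of 14 UGT genes (Ugt1a1, Ugt1a9, Ugt2b1, Ugt2b38, Ugt3a1 and Ugt3a2) and below 0 for 6 (Ugt1a6a, Ugt2a3, Ugt2b5, Ugt2b34, Ugt2b35 and Ugt2b36). Of the 3 SULT genes it lay above 0 for 0 and below 0 for 1, Sult1d1. Among 6184 genes of that level it lay above 0 for 14.5% and below 0 for 18.8%. The intervals narrow as reads increase, and hold no spread between mice or libraries and no error from dividing shared reads between genes. An interval without 0 therefore says only that the estimated reads of these 2 libraries differed beyond counting.

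The 10 UGT genes and 3 SULT genes on chromosome 5 lie together between 86889770 and 87591611 (RefSeq, GRCm38). In order of start they are Ugt2b34, Ugt2b1, Ugt2b35, Ugt2b36, Ugt2b5, Ugt2b37, Ugt2a3, Ugt2b38, Ugt2a1, Ugt2a2, Sult1b1, Sult1d1 and Sult1e1. The log2 changes did not run in one direction along this cluster. Ugt2b37 (0.56) and Ugt2b38 (0.40) lie on either side of Ugt2a3 (-0.10), and Ugt2b1 (0.13) lies between Ugt2b34 (-0.06) and Ugt2b35 (-0.07).

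**Figure D5:**
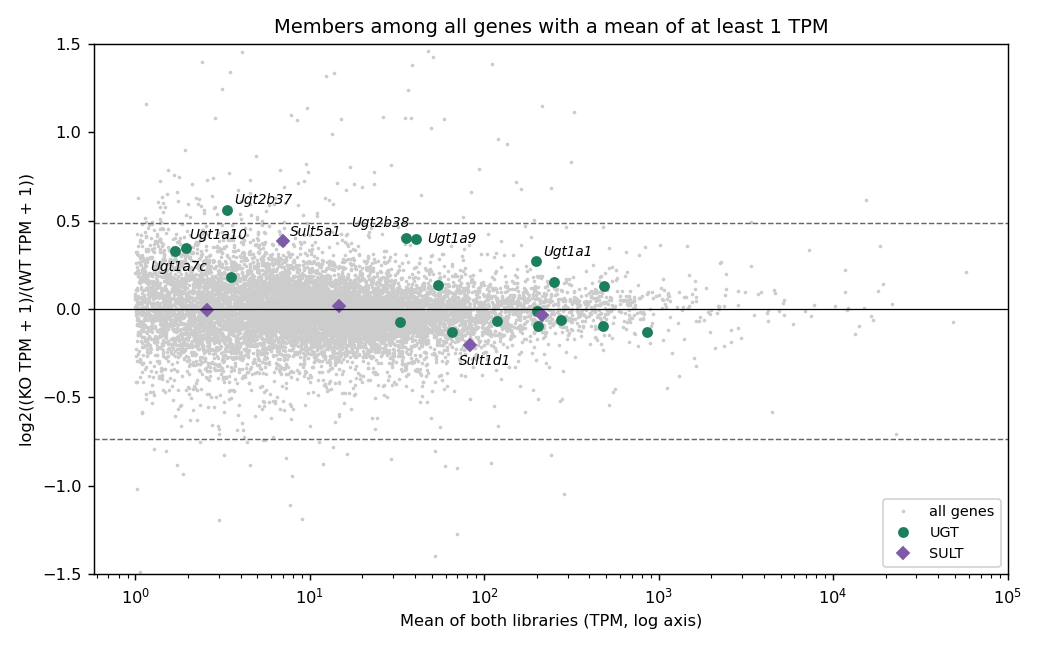
Log2 change against mean level (TPM, log axis) for 11597 of the genes averaging 1 TPM or more, with UGT genes as circles and SULT genes as diamonds, 26 genes beyond 1.5 on the log2 scale not drawn, and dashed lines at the folds of 1.4 and 0.6. Among the members drawn, only Ugt2b37 lies past a line, at 0.56.

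The genes that supply or use the same substrates gave no call. Of 5 genes for UDP-glucuronic acid supply and glucuronide cleavage, 0 were called in either direction and all 5 were lower in KO (median log2 change -0.15, against -0.01 for all genes). Of all 11623 genes averaging 1 TPM or more, 6257 were lower in KO. The counting interval lay below 0 for 3 of the 5 genes and held 0 for 2. The lowest was Slc35b1, a nucleotide carrier of the endoplasmic reticulum, at 35.68 TPM in KO and 45.71 in WT (-0.35, -0.50 to -0.18). The highest was Gusb, the lysosomal beta-glucuronidase that cleaves glucuronides, at 17.40 and 18.20 TPM (-0.06). Ugdh, which makes UDP-glucuronic acid, was at 103.16 TPM in KO and 114.84 in WT (-0.15).

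Of 8 listed genes for sulfate activation and removal, 0 were called and 5 were higher in KO, with a median of 0.03. Slc35b2, the Golgi carrier of PAPS, was the highest at 18.53 TPM in KO and 15.28 in WT (0.26, 0.12 to 0.47), and Impad1, a Golgi phosphatase of the pathway, the lowest at 24.67 and 28.95 TPM (-0.22). Papss2, the main PAPS synthase of liver, was at 88.53 and 86.28 TPM (0.04). Impad1 is listed under its older symbol, the current one being Bpnt2, and Sts was not listed under that symbol.

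Of 4 transporters that export conjugates, 0 were called, with a median of -0.05, from Abcc4 at 1.15 TPM in KO and 1.45 in WT (-0.19) to Abcg2 at 80.03 and 77.14 TPM (0.05). Of 8 transcription factors that regulate conjugation genes, 0 were called, with 4 higher and 4 lower in KO. The pregnane X receptor Nr1i2 was the lowest at 50.45 TPM in KO and 59.93 in WT (-0.24, -0.32 to -0.15), and the constitutive androstane receptor Nr1i3 the highest at 83.36 and 72.46 TPM (0.20, 0.11 to 0.31). Neither receptor differed by a fold of 1.2.

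In the other large families of detoxifying enzymes, 0 of 19 glutathione transferase genes averaging 1 TPM or more were called, with a median of -0.05 and a ratio of sums of 0.952. Their log2 changes ran from -0.67 (Gstm3) to 0.12 (Gsto1). Gstm3 thus changed by more than Ugt2b37 (0.56), which was called, but went uncalled under the stricter down cutoff. At the smaller fold of 1.2, 4 of the 19 were lower in KO and 0 were higher. Of 60 cytochrome P450 genes, 11 were called up and 1 down, beside 1.21% and 0.301% of all genes, with a median of 0.06 and a ratio of sums of 1.13. The counts for UGT (1 of 18 up) and SULT (0 of 5) stand beside these as descriptions, and the difference between families was not tested.

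The tissue label was checked against marker genes. The 6 hepatocyte markers summed to 72108 TPM in KO and 75240 in WT, and 4 pancreatic markers to 0.31 and 0.23 TPM. Bile duct markers summed to 4.15 and 5.44 TPM, Kupffer cell markers (3 of 4 listed) to 107.27 and 95.33, stellate cell markers to 160.40 and 180.32 and endothelial markers to 109.15 and 117.06. Of the intestinal list (3 of 4 listed), Vil1 was at 0.14 TPM in both libraries, while Fabp2 was at 140.37 TPM in KO and 128.09 in WT and Apoa4 at 230.84 and 329.55. The last 2 are also expressed by liver, so the list does not tell intestine from liver. The 8 female-biased liver genes summed to 1.01 and 0.77 TPM, with 0 of them averaging 1 TPM. The 8 male-biased genes were all above 10 TPM, with 3 higher and 5 lower in KO, and summed to 20516 and 31498 TPM, the lowest log2 change being that of Mup20 (-0.71). Mup20 alone was at 17437.62 TPM in KO and 28502.59 in WT, and the other 7 genes summed to 3078 and 2995 TPM, a ratio of 1.03. The part of these differences in the UGT and SULT values was not tested, and in whole liver fewer cells of a type and less RNA per cell cannot be told apart.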

How the data were processed

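Liver RNA from 1 pool of 5 mice per genotype was sequenced, and the authors deposited gene-level TPM for each library together with a table of normalised means. Per the labels and the submitters' processing notes, base calls came from CASAVA 1.8.2, and RSEM 1.2.09 with Bowtie estimated expression on mm10. The TPM values were deposited already normalised for length and depth, and RSEM divides reads that fit several transcripts by a model. This bears on Ugt1a members and on other UGT genes. The deposited means are a signal scaled between the libraries, and their smallest steps gave the value of 1 read (1.16 in KO and 0.860 in WT). At these values 78.4% of KO and 75.0% of WT means came out whole within 0.02 reads. Among members with a mean, 1 of 19 UGT genes and 7 of 9 SULT genes came out whole in both libraries. The UGT count was 0 of 8 for Ugt1a, 0 of 7 for Ugt2b and 0 of 2 for Ugt3a. How much of each estimate came from divided reads was not tested. The means carry C1 and C2 in place of genotypes and were taken as KO and WT from the order in the table's name. The same table holds the authors' posterior probabilities and fold changes, which were not used.

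Log2 changes used a pseudocount of 1 TPM, with calls at a mean of at least 1 TPM and a fold past 1.4 up or 0.6 down. With 1 library per genotype no test was run. The 95% Clopper-Pearson intervals used estimated reads, so they hold counting error alone. Genes named were all members averaging 10 TPM or more or past the fold, every Ugt1a member, Pgrmc1, and the highest and lowest gene of each list. Values given for other members and list genes, among them Ugdh, Papss2 and the markers, were chosen after they were seen. The members and lists were chosen with earlier results of these data known. Alternatives were another pseudocount, filter, fold and scaling, the means in place of TPM, and sums without the most abundant member. The script was tested on simulated data. Sequences and coordinates are from RefSeq GRCm38.p6 and GENCODE vM21, which are of the build the authors used, and all 38 members were matched. Python 3.11.15, numpy 2.4.6, pandas 2.3.3, scipy 1.17.1, Biopython 1.88 and matplotlib 3.10.9 were used.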

Additional observations from a re-analysis of the deposited data

How the results depend on the processing

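The count of UGT genes called up, 1 in the report, was 3 with a pseudocount of 0.1 TPM and 3 with the authors' means (Ugt1a10, Ugt1a7c and Ugt2b37 in both), 0 at a mean of at least 10 TPM, 0 at folds of 2 and 0.5, and 6 at a fold of 1.2. The count of SULT genes called up was 0, and 1 (Sult5a1) at a fold of 1.2. The median UGT log2 change was -0.036 at a mean of at least 10 TPM, against 0.13. The log2 ratio of summed UGT levels, -0.0049 in the report, was 0.024 with the authors' means, 0.0083 when centred on the median gene, and 0.039 without Ugt2b5. For the SULT sum, -0.063, it was -0.12 without Sult1a1. For the Ugt1a sum, 0.11, it was 0.14 with the authors' means and 0.18 without Ugt1a6b. Of 196 alternatives over 49 single genes, 194 moved the value by no more than the distance from the middle of its counting interval to its end. The 2 others were both of Pgrmc1. The sign changed in 6 of the 196, for Sult1c2, Ugt1a6b and Slc26a1 with the authors' means and with centring. No paired analysis was possible because there was only 1 library for KO and 1 for WT. Leaving out a replicate was not possible for the same reason. The spread between mice was not measured. The causes of these shifts were not tested.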
